A study of Sus scrofa with 27 samples.

Results

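Interleukin 10 (IL-10), its receptor and the feedback genes of cytokine receptors were followed in pig lungs during ex vivo lung perfusion (EVLP), in which an explanted lung is ventilated and perfused outside the body. The 9 genes were looked up by symbol in the table of read counts: IL10, IL10RA, IL10RB, IL4R, JAK2, JAK3, SOCS1, CISH and SOCS2. Of these, 8 had a row of their own among the 31908 genes, all 8 reached 10 counts in at least 1 library, and all 8 were tested in every comparison. SOCS2 had no row under its symbol. The row whose description names SOCS2 carries the symbol CRADD (ENSSSCG00000000910, Sscrofa11.1, minus strand, chr5:89242169-89586239) and spans most of both genes in the RefSeq annotation. That row was not read as SOCS2.

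Lungs of Large-White pigs were recovered after circulatory arrest, kept cold, and perfused for 12h with acellular Steen solution containing methylprednisolone, a glucocorticoid, in both groups. In the Gold Standard (GS) group, 5 pigs, part of the perfusate was exchanged at intervals, and in the Pediatric Dialysis (PD) group, 4 pigs, the perfusate was dialysed continuously through a pediatric membrane. A biopsy of each lung was taken at 0h, 6h and 12h, which gave 15 GS and 12 PD libraries of bulk RNA-seq. A leukocyte filter was part of the circuit. All 7 lung-defining markers (SFTPC, SFTPB, SFTPA1, AGER, NAPSA, PECAM1 and CDH5) were in the table, with a summed level of 6820 to 82800 CPM (counts scaled to library size, the usual unit of level) per library.

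IL-10 is a cytokine that restrains inflammatory gene expression. It binds a receptor made of the IL10RA chain, found mainly on leukocytes, and the IL10RB chain, which most cells carry and which other cytokine receptors of the family share. IL4R is the alpha chain of the receptors for IL-4 and IL-13. Receptors of this kind signal through Janus kinases: JAK3 works with the common gamma chain in leukocytes, and JAK2 serves many cytokine and hormone receptors. Janus kinases activate STAT transcription factors, and these induce SOCS1, CISH and SOCS2, inhibitors that bind the receptor or the kinase and end the signal. SOCS1 and CISH transcripts are therefore commonly read as signs of recent cytokine signalling.

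The sequence before a feedback gene can hold the sites where STAT factors act, so the 250 bases upstream of the start of each row's gene were read from the RefSeq copy of Sscrofa11.1. Activated STAT5 binds a palindrome of the form TTCNNNGAA. Both strands were searched, and the palindrome is its own reverse complement. Among 20273 windows of this length before protein-coding genes, 1237 held the motif (6.1%). The window of CISH held it at 2 places, with 170 and 153 bases left before the start, and the CRADD row that reaches over SOCS2 held it at 2 places, 94 and 83 bases before the start. No window of the other 7 genes held these letters. Interferon regulatory factors bind elements of the form GAAANNGAAA, which 674 of the 20273 windows held on either strand (3.32%). SOCS1 held 1 such element, 117 bases before its start, and it was the only window among these genes with one. RefSeq places the start of SOCS1 further upstream, at 31879143 with 3 transcript starts, so this window lies inside the RefSeq gene and precedes only the start of the row in the table. The windows of IL10, IL4R and JAK2 reach into their RefSeq genes as well, those of IL10RA and JAK3 in small part, and the window of the CRADD row lies inside RefSeq SOCS2 and away from the RefSeq start of CRADD (89480414). The window of CISH lies before both starts. The windows of CISH (minus strand, chr13:33090616-33090865) and SOCS1 (plus strand, chr3:31880975-31881224) are shown 5′ to 3′ because these 2 inhibitors are among the genes that rose, with the motif letters in capitals. A match of letters is a description and not evidence of binding.
CISH: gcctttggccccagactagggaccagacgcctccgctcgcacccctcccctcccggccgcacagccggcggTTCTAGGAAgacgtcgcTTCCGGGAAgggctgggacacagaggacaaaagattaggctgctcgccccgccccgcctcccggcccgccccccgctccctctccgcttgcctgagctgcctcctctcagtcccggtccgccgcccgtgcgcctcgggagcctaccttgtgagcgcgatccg
SOCS1: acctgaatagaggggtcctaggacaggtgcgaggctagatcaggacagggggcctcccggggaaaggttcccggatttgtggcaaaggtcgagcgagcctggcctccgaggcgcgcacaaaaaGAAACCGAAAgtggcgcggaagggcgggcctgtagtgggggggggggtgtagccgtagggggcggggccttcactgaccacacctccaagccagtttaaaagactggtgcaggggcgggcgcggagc

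Library totals ran from 26335584 to 67522703 counts in GS and from 14650700 to 21820935 in PD, so sequencing depth and group cannot be told apart. Per the paper, the PD lungs had served an earlier study for its 6h time point, and the GS group was distinct from that study's. The set of lungs and group therefore cannot be told apart either. Within GS the libraries of pigs 9 and 17 totalled 26335584 to 41802541 counts and those of pigs 44, 55 and 77 totalled 51708598 to 67522703. GS results are therefore also given within these depth ranges where that changes a call or a direction, in part under the dependence on processing. These fits, of 2 and 3 pigs, were added after seeing the data, and the difference between the ranges was not tested. The PD libraries of pig 2 at 12h and pig 4 at 0h stood apart from their group, with a median correlation to the other PD libraries of 0.877 and 0.883 against 0.9245 or more for the rest, and surfactant protein C took 5.38% and 6.39% of their counts. PD changes from 0h are also given without this pair of libraries where that changes a call, a direction or the size of a called value. That setting was added after seeing the data, and it leaves only pigs 3 and 5 with both a 0h and a 12h library. The lowest count of any member in any library was 50, well above the floor of 3 counts, equal to 0.104 CPM or less in the GS libraries and 0.295 CPM or less in the PD libraries.

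The first question was which of these genes changed during perfusion in each group. Calls required a 2-fold change or more together with an adjusted p (Benjamini-Hochberg, over all genes tested) below 0.05 by edgeR's quasi-likelihood test with the pig as a block. In GS, SOCS1, CISH and IL4R rose at 6h and at 12h, 2.2-fold to 3.8-fold. In PD, SOCS1 and IL4R rose at 12h, 3.0-fold and 6.8-fold, and none of the 8 was called at 6h. IL10 itself, IL10RA, IL10RB, JAK2 and JAK3 were called in none of these comparisons. In GS 3 of 8 were called at 6h, where 11.1% of all 18594 genes tested were called and 5.5% were called higher. At 12h the same 3 were called, where 15.7% of genes were called and 6.99% were called higher. In PD none was called at 6h against 0.142% of 15545 genes (0.135% higher), although 3 members had an unadjusted p below 0.05 by edgeR, as 9.41% of all genes did, and DESeq2 called 2 of them, SOCS1 and CISH. At 12h 2 were called in PD against 5.98% of genes (3.22% higher). None was called lower. The median log2 fold change over the 8 genes was 0.70 and 0.67 in GS at 6h and 12h, and 1.16 and 1.36 in PD, where the median over all genes tested lay between -0.08 and -0.02. Biopsies are mixtures of cells, so a change in the share of a cell type and a change in RNA per cell cannot be told apart.

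**Figure D1:**
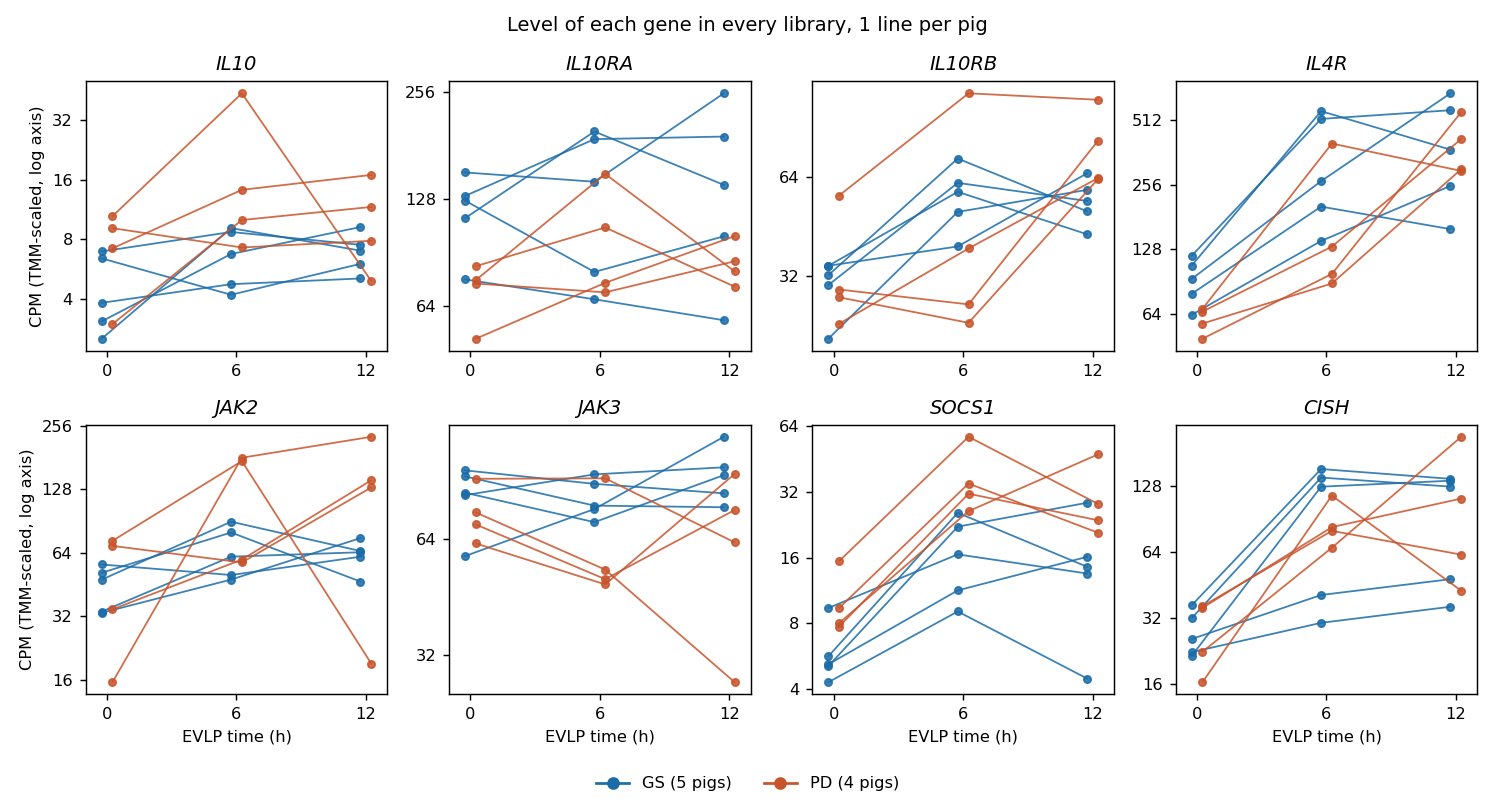
Level of each of the 8 genes in every library, in CPM scaled by TMM on a log axis, against EVLP time, with 1 line per pig (GS blue, 5 pigs; PD orange, 4 pigs). IL4R is higher at 6h and 12h than at 0h in every pig, whereas JAK3 shows no common direction and JAK2 of PD runs from 15.6 to 227 CPM.

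IL10, the ligand (ENSSSCG00000015652, minus strand, chr9:67400727-67405711), was among the least counted of the 8 genes, with 50 to 692 counts per library. GS pigs 9, 17, 44, 55 and 77 were at 6.40, 3.82, 6.94, 3.08 and 2.52 CPM at 0h, at 4.19, 4.74, 8.70, 6.74 and 9.10 CPM at 6h, and at 6.01, 5.07, 7.49, 9.21 and 7.002 CPM at 12h. PD pigs 2, 3, 4 and 5 were at 10.4, 9.09, 2.98 and 7.19 CPM at 0h, at 43.6, 7.26, 9.996 and 14.2 CPM at 6h, and at 4.92, 7.85, 11.6 and 16.9 CPM at 12h. The groups overlap at every time, and 1 library, PD pig 2 at 6h, is far above the others. Pig 2 then had the lowest PD level at 12h, in 1 of the libraries that stand apart.

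Neither group passed the test for IL10. The log2 fold change was 0.53 ± 0.29 (SE) at 6h and 0.56 ± 0.29 at 12h in GS (adjusted p = 0.188 and 0.14, edgeR), with 4 of 5 pigs higher at each time. For PD it was 1.15 ± 0.58 at 6h and 0.63 ± 0.57 at 12h (adjusted p = 0.567 and 0.542, edgeR), with 3 of 4 and 2 of 4 pigs higher, and without the pair of libraries that stand apart 0.85 and 0.84 (adjusted p = 0.318 and 0.164). The GS pigs were also fitted within each depth range. At 6h, pigs 44, 55 and 77 gave 1.05 with an adjusted p of 0.0323, which is a call, and pigs 9 and 17 gave -0.17 (adjusted p = 0.781). At 12h neither range gave a call (0.99 and 0.07, adjusted p = 0.0343, under 2-fold, and 0.901). The difference between the ranges was not tested. At 6h single pigs of the ranges did not overlap but nearly met, with 1.25-fold in pig 44 and 1.24-fold in pig 17. At 12h they overlapped, with 1.08-fold in pig 44 and 1.33-fold in pig 17.

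IL10RA, the chain that binds IL-10 (ENSSSCG00000015085, plus strand, chr9:45310553-45389323), did not pass in either group, with log2 fold changes of 0.05 and 0.10 in GS and 0.44 and 0.30 in PD at 6h and 12h. Its levels lay between 58.2 and 254 CPM in GS and between 51.6 and 150.3 CPM in PD. Pigs 9 and 17 were the lowest GS pigs at 6h (66.6 and 79.6 CPM against 143 to 198 CPM) and at 12h (58.2 and 100.3 CPM against 140.0 to 254 CPM). The gene model in the table runs past the RefSeq end of IL10RA and over genes of the other strand, and the strand setting of the counting is not given in the sources used here.

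IL10RB, the shared chain (ENSSSCG00000041289, plus strand, chr13:196853469-196884932), was higher at both times in all 5 GS pigs, with a fitted fold change of 1.82 at 6h and 1.72 at 12h, under the 2-fold threshold. Its GS levels were 32.1, 20.6, 29.9, 34.3 and 34.3 CPM at 0h, 72.7, 50.01, 61.3, 39.3 and 57.6 CPM at 6h, and 50.2, 58.4, 54.0, 65.6 and 42.7 CPM at 12h. In PD it was at 22.8, 27.5, 56.1 and 29.0 CPM at 0h, at 38.7, 23.0, 115 and 26.1 CPM at 6h, and at 63.4, 62.9, 109.8 and 82.4 CPM at 12h. No GS library at 6h or 12h overlaps the GS libraries at 0h, and the PD libraries at 12h lie above those at 0h as well. The log2 fold change in GS was 0.86 ± 0.18 and 0.78 ± 0.18 (SE, adjusted p = 0.00505 and 0.00564, edgeR). Single pigs ranged from 1.15-fold to 2.43-fold at 6h and from 1.25-fold to 2.84-fold at 12h. Pigs 9 and 17 alone gave 1.21 and 1.02 on the log2 scale (adjusted p = 0.0446, which is a call at 6h, and 0.051), and pigs 44, 55 and 77 alone 0.68 and 0.69 (adjusted p = 0.0365 and 0.0282). In PD it was 0.36 ± 0.35 (adjusted p = 0.716) at 6h and 1.32 ± 0.35 at 12h, where the adjusted p of 0.0511 missed the threshold with 4 of 4 pigs higher. Without the pair of PD libraries that stand apart the 12h value was 1.25 with an adjusted p of 0.0158, and DESeq2 called it as well.

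IL4R (ENSSSCG00000007817, minus strand, chr3:19523564-19576544) had the highest log2 fold change among the members in 3 of the 4 comparisons with 0h, the exception being PD at 6h, where SOCS1 and CISH were above it. GS pigs were at 79.6, 63.6, 119.5, 93.3 and 108 CPM at 0h, at 202, 140.1, 517, 266 and 562 CPM at 6h, and at 159, 253, 567, 679.8 and 372 CPM at 12h. PD pigs were at 65.8, 57.9, 67.8 and 49.2 CPM at 0h, at 132, 88.9, 397 and 98.5 CPM at 6h, and at 417, 302, 296 and 556 CPM at 12h. Every library taken during perfusion lies above every 0h library of its own group. In GS the log2 fold change was 1.68 ± 0.26 at 6h and 1.94 ± 0.26 at 12h (SE, adjusted p = 0.000954 and 0.000265, edgeR). In PD it was 1.35 ± 0.45 at 6h, not called (adjusted p = 0.362), and 2.76 ± 0.47 at 12h, called (adjusted p = 0.0176). PD pig 4 had already reached 397 CPM at 6h and was at 296 CPM at 12h, while the other 3 PD pigs went from 88.9 to 132 CPM to 302 to 556 CPM.

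The PD call of IL4R at 12h held in 2 of 4 fits with 1 pig left out. It was lost without pig 3 or pig 5 (fold changes of 2.47 to 2.92 on the log2 scale and adjusted p of up to 0.254 over the 4 fits with 1 pig left out), and when the 0h and 12h libraries were fitted without those of 6h (2.68, adjusted p = 0.106), and it was kept without the libraries that stand apart (2.56, adjusted p = 0.00179). In GS, pigs 9 and 17 alone gave 1.24 and 1.47 at 6h and 12h (adjusted p = 0.0541 and 0.0325), and pigs 44, 55 and 77 alone gave 2.05 and 2.33 (adjusted p = 0.0013 and 0.000523).

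JAK2 (ENSSSCG00000005215, minus strand, chr1:216848686-217002148) ranged widely between PD libraries. GS levels were 51.4, 56.2, 33.6, 33.2 and 47.6 CPM at 0h, 79.7, 50.1, 61.3, 47.7 and 89.7 CPM at 6h, and 46.7, 61.2, 64.3, 75.0 and 65.1 CPM at 12h. PD levels were 72.8, 68.9, 15.6 and 34.5 CPM at 0h, 174, 57.5, 180.3 and 59.3 CPM at 6h, and 19.1, 130.4, 227 and 141 CPM at 12h. The lowest levels of JAK2, 15.6 and 19.1 CPM, are those of the 2 libraries that stand apart. The log2 fold change was 0.52 ± 0.20 and 0.45 ± 0.20 in GS (SE, adjusted p = 0.0685 and 0.0964, edgeR), and 1.18 ± 0.73 and 1.41 ± 0.75 in PD (adjusted p = 0.622 and 0.277). With both libraries left out the PD value at 12h was 1.49 (adjusted p = 0.00561, edgeR), and the gene was then called. At 6h the PD value was 0.68 (adjusted p = 0.309, edgeR). This choice was made after seeing the data, and only pigs 3 and 5 then had both a 0h and a 12h library.

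JAK3 (ENSSSCG00000013888, plus strand, chr2:59905919-59926495), the kinase of the common gamma chain, moved in no common direction. It ran from 57.7 to 118 CPM in GS and from 27.1 to 94.2 CPM in PD, with the lowest value again in PD pig 2 at 12h. Log2 fold changes were -0.06 and 0.11 in GS and -0.35 and -0.25 in PD at 6h and 12h (lowest adjusted p = 0.599, edgeR).

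SOCS1 (ENSSSCG00000027855, plus strand, chr3:31881225-31884969), an inhibitor of Janus kinases, rose in both groups. GS pigs were at 4.31, 5.20, 9.42, 5.11 and 5.66 CPM at 0h, at 9.08, 11.3, 16.6, 22.2 and 25.7 CPM at 6h, and at 4.48, 16.2, 13.6, 28.6 and 14.5 CPM at 12h. PD pigs were at 9.42, 7.75, 15.4 and 8.03 CPM at 0h, at 35.0, 31.4, 57.3 and 26.1 CPM at 6h, and at 20.8, 23.8, 28.2 and 47.6 CPM at 12h. At 6h the lowest PD level (26.1 CPM) was close to the highest GS level (25.7 CPM). SOCS1 was already called higher in PD at 0h (adjusted p = 0.0419, edgeR). GS pig 9 had returned to its 0h level at 12h. The log2 fold change in GS was 1.40 ± 0.30 at 6h and 1.15 ± 0.30 at 12h (SE, adjusted p = 0.00491 and 0.0094, edgeR).

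For PD the log2 fold change of SOCS1 was 1.86 ± 0.38 at 6h, where the adjusted p of 0.0827 missed the threshold with 4 of 4 pigs higher, by 3.25-fold to 4.05-fold. At 12h it was 1.61 ± 0.38 (adjusted p = 0.0343). The 6h change was called in 6 of the 7 other settings that leave out no whole pig (the exception being DESeq2 size factors, adjusted p = 0.0788) and in none of the 4 fits with 1 pig left out. The 12h call held in 1 of those 4 fits, the one without pig 2, and was lost when the 6h libraries were left out of the fit (1.555, adjusted p = 0.144). Without the pair of libraries that stand apart both values passed, 2.05 and 1.90 (adjusted p = 0.00226 and 0.00246). In GS the 12h call was lost without pig 55 (0.83, adjusted p = 0.0565). Pigs 9 and 17 alone gave 1.08 at 6h (adjusted p = 0.15), and pigs 44, 55 and 77 alone gave 1.65 (adjusted p = 0.00738). At 12h the values were 0.86 (adjusted p = 0.215) and 1.40 (adjusted p = 0.0118), so in both comparisons only the fit of pigs 44, 55 and 77 gave a call. The fit of pigs 9 and 17 has fewer pigs, and the difference between the ranges was not tested.

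CISH (ENSSSCG00000040581, minus strand, chr13:33084873-33090615) is an inhibitor that STAT5 induces. GS pigs were at 25.6, 22.3, 36.5, 21.4 and 31.9 CPM at 0h, at 40.7, 30.3, 154, 128 and 140.4 CPM at 6h, and at 48.1, 36.0, 138, 136 and 128 CPM at 12h. PD pigs were at 22.4, 16.2, 36.2 and 35.5 CPM at 0h, at 67.0, 116, 80.0 and 83.3 CPM at 6h, and at 216, 42.5, 62.3 and 112 CPM at 12h. During perfusion the GS pigs fall into a low pair, pigs 9 and 17, and a high trio, and the PD levels at 6h lie between them.

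The log2 fold change of CISH in GS was 1.50 ± 0.28 at 6h and 1.49 ± 0.28 at 12h (SE, adjusted p = 0.00253 and 0.00156, edgeR), with 5 of 5 pigs higher at each time. For pigs 44, 55 and 77 alone it was 2.24 and 2.16 (adjusted p = 6.46e-05 and 5.3e-05), and for pigs 9 and 17 alone 0.54 and 0.73 (adjusted p = 0.138 and 0.0619). In PD it was 1.70 ± 0.53 at 6h and 1.87 ± 0.54 at 12h, with 4 of 4 pigs higher, and missed the threshold (adjusted p = 0.309 and 0.0655). Of the 7 other settings that leave out no whole pig, 3 called CISH in PD at 6h and 5 at 12h. None of the 4 fits with 1 pig left out called it at either time. Without the pair of libraries that stand apart both values passed, 1.94 and 1.50 (adjusted p = 0.00248 and 0.0088).

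**Figure D2:**
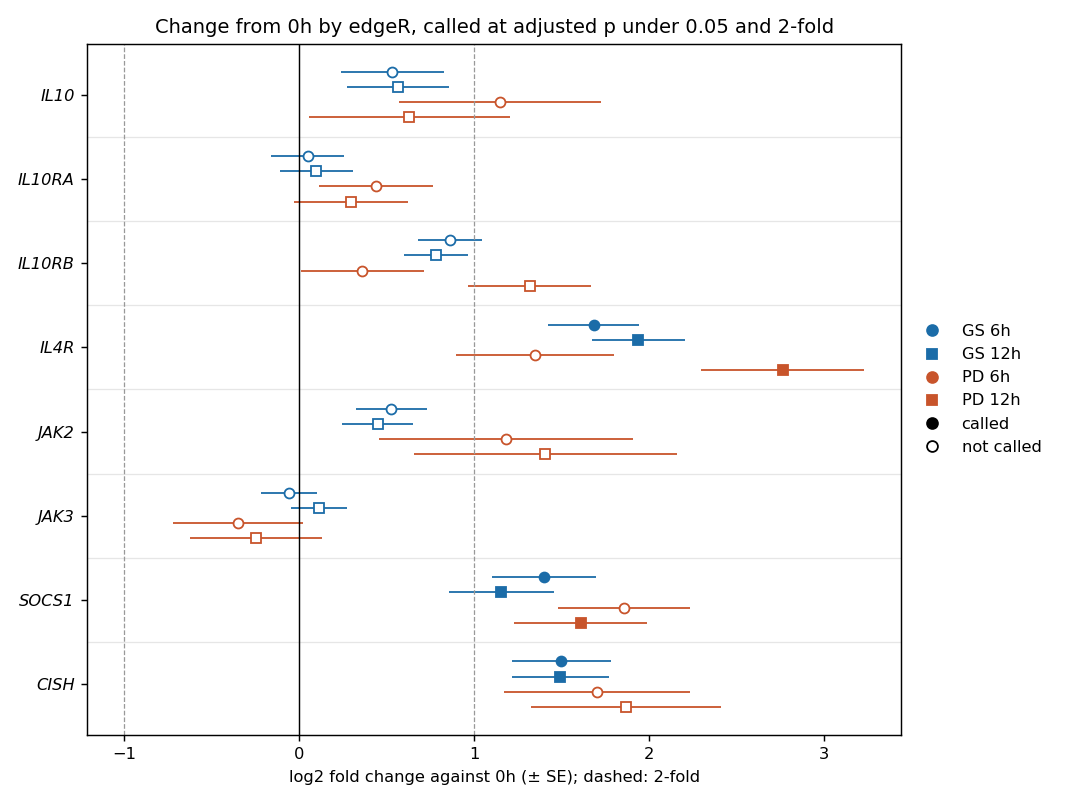
Log2 fold change against 0h with its SE for the 8 genes in GS (blue) and PD (orange) at 6h (circles) and 12h (squares), by edgeR. Filled symbols are called, and the dashed lines mark 2-fold. The filled symbols are those of IL4R, SOCS1 and CISH in GS and of IL4R and SOCS1 at 12h in PD.

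Between 6h and 12h no member was called in either group (adjusted p below 0.05, no fold threshold, edgeR), and neither was any other gene (0% of 18594 in GS and of 15545 in PD). None of the 8 had an unadjusted p below 0.05 in GS, where 4.74% of all genes had one, 2 had one in PD, where 10% of all genes had one, and DESeq2 called none. The 2 in PD were receptor chains, IL4R with a log2 fold change of 1.42 ± 0.46 (SE, adjusted p = 0.406) and IL10RB with 0.96 ± 0.36 (adjusted p = 0.426), each higher in 3 of 4 pigs. SOCS1 stood at -0.24 (GS) and -0.25 (PD) on the log2 scale over the same interval.

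The study compared the changes from 0h between PD and GS. No member was called for a difference in its change at 6h or at 12h by the interaction of group and time in edgeR, nor was any other gene (0% of 17884). No member had an unadjusted p below 0.05 in this test, where 5.85% of all genes at 6h and 5.98% at 12h had one, and DESeq2 called none. The PD change of SOCS1 exceeded the GS change by 0.45 ± 0.47 (SE, log2) at 6h and 0.43 ± 0.48 at 12h. For IL4R the difference at 12h was 0.79 ± 0.51 (adjusted p = 0.912). IL10RB had a smaller change in PD than in GS at 6h, by -0.51 ± 0.37, and a greater one at 12h, by 0.50 ± 0.37 (adjusted p = 0.786 and 0.921). JAK2 differed by 0.62 ± 0.74 and 0.92 ± 0.75. These SEs leave room for differences of about the size of the changes themselves, so the test does not show that the groups act alike.

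Each pig's ratio to its own 0h level was also compared between the groups by permuting the 9 pigs exactly (two-sided), for which the smallest possible p is 0.00794. Over the 8 genes the exact permutation p was 0.135 or more at 6h and 0.119 or more at 12h, while 9.85% and 5.91% of all 17884 genes had an unadjusted p below 0.05. After adjustment no gene passed (smallest adjusted p 0.347 and 0.561). The 4 PD pigs were close together in SOCS1 at 6h, with a mean log2 ratio of 1.87 ± 0.13 (SD, n = 4), while GS pigs were at 1.46 ± 0.64 (SD, n = 5). GS and PD ranges overlapped for all 8 genes at both times, and over all genes only 3.08% at 6h and 2.13% at 12h had ranges that did not overlap.

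**Figure D3:**
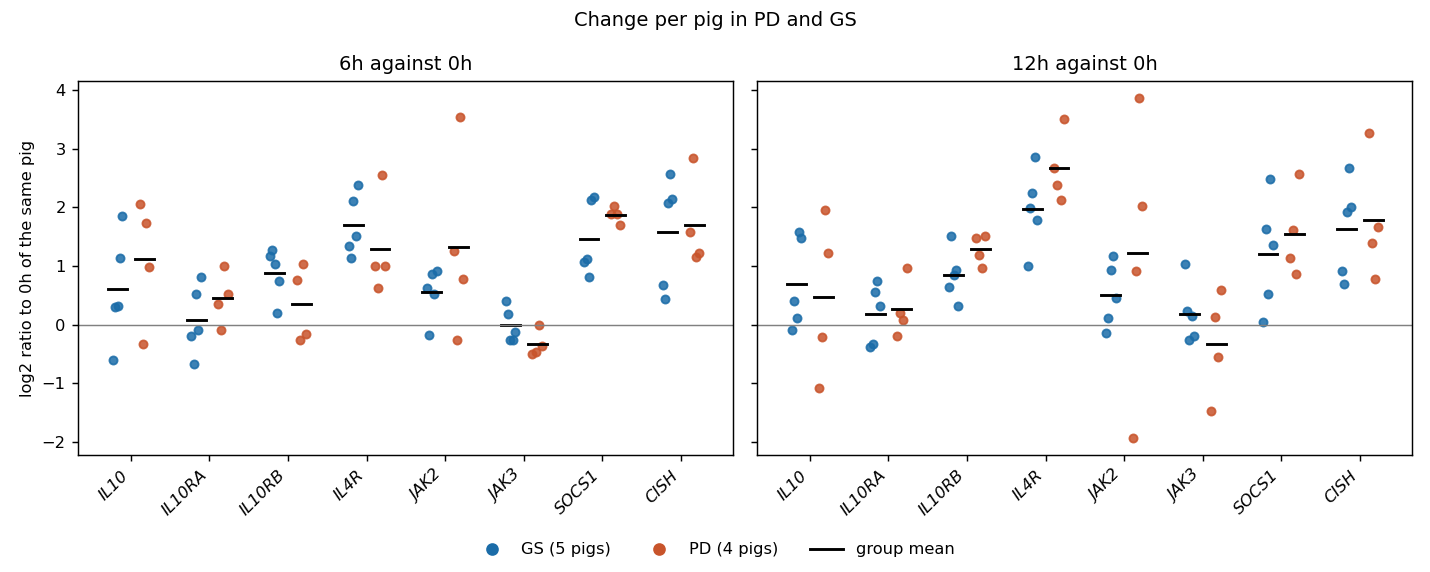
Log2 ratio of each gene to the 0h level of the same pig, at 6h and 12h, for 5 GS pigs (blue) and 4 PD pigs (orange), with black bars for group means. The groups overlap for every gene, and the PD ratios of SOCS1 at 6h lie between 1.70 and 2.02.

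Levels at a single time were compared between the groups as well. Here too sequencing depth, the set of lungs and group cannot be told apart. At 0h 2 of the 8 members were called (adjusted p below 0.05, edgeR), against 40.6% of 16477 genes tested. SOCS1 was higher in PD by 0.87 ± 0.31 (SE, log2, adjusted p = 0.0419) and IL10RA was lower by -0.66 ± 0.23 (adjusted p = 0.0347). For IL4R the difference was -0.53 ± 0.21 (adjusted p = 0.0657). At 6h 2 of 8 were called, against 24.3% of 16201 genes: SOCS1 by 1.17 ± 0.35 (adjusted p = 0.0271) and IL10 by 1.52 ± 0.48 (adjusted p = 0.0351), both higher in PD. At 12h none was called, against 20.1% of 16431 genes, although 3 members had an unadjusted p below 0.05 by edgeR (DESeq2 called none), where 35.1% of all genes had one: SOCS1 (1.07), JAK2 (1.13) and IL10RB (0.66). The share of members called was below that of all genes at 0h and at 12h and close to it at 6h.

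These level calls rest on few libraries. IL10 at 6h was no longer called without PD pig 2, which had 43.6 CPM (0.70, adjusted p = 0.209), and its call held in 4 of the 9 fits with 1 pig left out. The 6h call of SOCS1 held in 6 of 9 and was lost without PD pig 2 (1.22, adjusted p = 0.0604), PD pig 4 (0.90, adjusted p = 0.0825) or GS pig 44 (1.15, adjusted p = 0.0576). At 0h the call of IL10RA held in 4 of 9 such fits (adjusted p from 0.0119 to 0.107) and that of SOCS1 in 3 of 9, and without PD pig 4, 1 of the libraries that stand apart, SOCS1 was at 0.57 (adjusted p = 0.118), while IL10 and IL4R gained a call (1.04 and -0.61, adjusted p = 0.0331 and 0.0383). JAK2 at 12h was called once PD pig 2 was left out (1.49, adjusted p = 0.00227). Marker levels differed between the groups too. PTPRC, the pan-leukocyte marker, was lower in PD at 0h by -0.95 ± 0.34 (adjusted p = 0.0419), as IL10RA was, and at 6h and 12h it was not called (-0.25 and -0.85, adjusted p = 0.44 and 0.129). Of 8 macrophage and monocyte markers, 3 were called lower in PD at 0h, 5 at 6h and 2 at 12h, and none higher, where 19.3%, 11.4% and 9.49% of all genes were called lower. Their summed level was 2150 to 2860 CPM in PD and 3660 to 6920 CPM in GS at 0h, and 1780 to 2900 CPM and 2930 to 7360 CPM at 6h, while at 12h the groups overlapped (1780 to 4230 CPM and 3810 to 6410 CPM). The 3 measured neutrophil markers (of 6 listed) did not move one way: S100A8 and S100A12 were higher in PD at 0h (3.27 and 2.29, adjusted p = 0.000382 and 0.0012) and at 6h (2.39 and 1.57), and CSF3R was lower (-1.36 at 0h and -1.29 at 6h, adjusted p = 0.0156 and 0.0306). The red cell markers HBB and ALAS2 summed to 50.6 to 223 CPM in PD and 0.354 to 10.5 CPM in GS at 0h, and to 13.4 to 89.7 CPM and 0.624 to 2.97 CPM at 6h. Markers of B and plasma cells (4 measured of 5 listed) summed to 445 to 2090 CPM in PD and 222 to 319 CPM in GS at 0h, to 658 to 1370 CPM and 173 to 276 CPM at 6h, and to 141 to 793 CPM and 140 to 445 CPM at 12h. JCHAIN, the joining chain of antibodies that plasma cells make, was higher in PD by 2.43 at 0h and 2.56 at 6h (adjusted p = 0.000949 and 0.000651), and CD79A, of the B cell receptor, was called lower at all 3 times (-1.97, -1.78 and -1.69). At 6h PD pig 2, the library with the highest IL10, had the highest PD sums of 5 of the 7 marker lists: B and plasma cells (1370 CPM against 658 to 855 CPM in the other 3 pigs), neutrophils (1100 against 219 to 318 CPM), macrophages and monocytes (2900 against 1780 to 2490 CPM), PTPRC (291 against 238 to 258 CPM) and lung-defining genes (49300 against 16800 to 25700 CPM). The highest B and plasma cell sum of any library, 2090 CPM in PD pig 3 at 0h, stood beside 9.09 CPM of IL10. Of the lung-defining markers, SFTPC was higher in PD at 0h, 6h and 12h (3.56, 2.57 and 2.93), CDH5 was lower at all 3 times (-1.70 at 0h, adjusted p = 0.00349), and SFTPB was lower at 0h and 12h (-1.35 and -1.82). The part of these cells in the differences was not tested.

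Within each gene, the order of the 6 combinations of group and time follows from the mean levels. SOCS1 ran from 5.94 ± 2.00 CPM (SD, n = 5) in GS at 0h, through PD at 0h, GS at 12h, GS at 6h and PD at 12h, to 37.5 ± 13.7 CPM (SD, n = 4) in PD at 6h. IL4R ran from 60.2 ± 8.47 CPM in PD at 0h to 406 ± 216 CPM in GS at 12h, and IL10RB from 30.2 ± 5.70 CPM in GS at 0h to 79.6 ± 22.1 CPM in PD at 12h. IL10 ran from 4.55 ± 2.00 CPM in GS at 0h to 18.8 ± 16.8 CPM in PD at 6h. CISH was lowest at 0h in both groups (27.5 ± 6.48 and 27.6 ± 9.89 CPM) and at 86.6 ± 20.9 CPM or more in the other 4 combinations. Neighbours in these orders overlapped in their ranges for every gene, with the exception of CISH between PD at 0h and PD at 6h.

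Among leukocyte markers CD14, a marker of monocytes and macrophages, rose in GS at the times at which SOCS1, CISH and IL4R were called, by 1.28 at 6h and 1.596 at 12h (log2, adjusted p = 0.00159 and 0.000292, edgeR). None of the other 7 macrophage and monocyte markers was called in GS, and none of the 8 was called in PD. PTPRC had log2 fold changes of -0.57 and -0.79 in GS at 6h and 12h (adjusted p = 0.00844 and 0.000876, both under 2-fold) and of 0.28 and -0.60 in PD (adjusted p = 0.832 and 0.477). Of 7 measured markers of T and NK cells (of 8 listed), none was called higher in any of the 4 comparisons with 0h, and 1 was called lower at 12h in each group (CD2 in GS, CD3D in PD). No measured marker of neutrophils or of B and plasma cells was called in these 4 comparisons. Of the red cell markers, HBB fell in GS, with -1.565 at 6h and -1.5 at 12h (log2, adjusted p = 0.0246 and 0.0189, edgeR), and was at -2.48 and -2.67 in PD (adjusted p = 0.53 and 0.256), and ALAS2 was called in none. The part of these cells in the changes of SOCS1, CISH and IL4R was not tested.

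The wider pathway was described with 40 listed genes of cytokine receptors, Janus kinases, STATs and their regulators, of which 36 were in the table and 34 were tested in GS and 33 in PD. In GS at 6h 5 rose and 1 fell of the 34, where 11.1% of all genes tested were called and 5.5% higher. SOCS3, the inhibitor that IL-6 family signalling induces, rose by 1.93 ± 0.37 (SE, log2). PTPN1, a phosphatase that acts on JAK2 and TYK2, rose by 1.75 ± 0.20. The STAT5 target kinase PIM1 rose by 1.30 ± 0.25, the shared IL-6 receptor chain IL6ST by 1.10 ± 0.16 and the IL-21 receptor IL21R by 1.02 ± 0.36, and PTPN6, a phosphatase of blood cells, fell by 1.44 on the log2 scale.

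At 12h 4 of the pathway list rose and 1 fell in each group, of 34 tested in GS, where 15.7% of all genes were called, and of 33 in PD, where 5.98% were. In GS that share is near the background. The 5 names were the same in both groups: SOCS3, PTPN1, PIM1 and STAT5A rose and PTPN6 fell. Their log2 fold changes in GS were 1.99, 1.75, 1.51, 1.002 and -1.41, and in PD 2.52, 1.99, 2.31, 1.95 and -1.64 (adjusted p from 0.000122 to 0.0398, edgeR). PD at 6h had no call among the 33, where SOCS3 had 3.21 ± 0.54 (adjusted p = 0.0548). The median log2 fold change of the pathway list was 0.23 and 0.31 in GS and 0.39 and 0.49 in PD at 6h and 12h, lower than that of the 8 members.

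A list of 14 genes known to respond to IL-10, of which 13 were tested, was described in the same way. In GS 3 rose at 6h, BCL3 (1.97), NFIL3 (1.86) and SBNO2 (1.64), and at 12h these 3 and ETV3 rose, by 1.23 to 2.18 on the log2 scale, where 5.5% and 6.99% of all genes were called higher. In PD NFIL3 rose at 6h, by 3.28 ± 0.43 (SE, adjusted p = 0.0176, edgeR), and the same 4 rose at 12h, by 1.83 to 2.45, where 0.135% and 3.22% of all genes were called higher. BCL3, NFIL3, SBNO2 and ETV3 encode transcriptional regulators, and all also respond to other stimuli. None of the 13 was called lower in these comparisons, and 9 or more did not pass in each. FCGR1A was at -0.73 in GS at 12h with an adjusted p of 0.0232, under the 2-fold threshold. The list median was 0.21 and 0.53 in GS and 0.41 and 0.51 in PD at 6h and 12h.

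**Figure D4:**
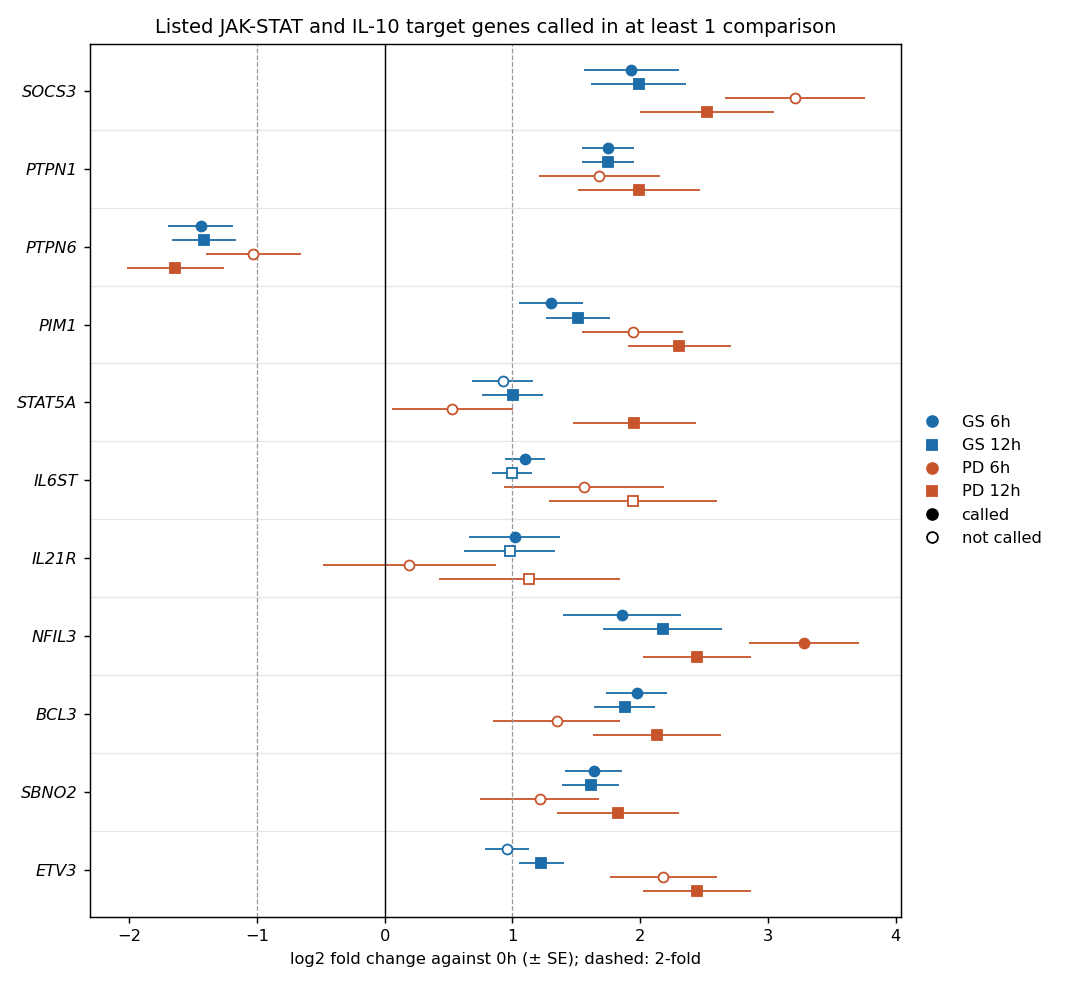
Log2 fold change against 0h with its SE for the genes of the pathway list (7 names from SOCS3 to IL21R) and of the IL-10 target list (4 names from NFIL3 to ETV3) that were called in at least 1 of the 4 comparisons. Filled symbols are called. PTPN6 is the only one of the 11 with negative values.

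Across the 27 libraries, after the mean of each group was subtracted, log2 CPM of SOCS1, CISH and IL4R went together, with Pearson r of 0.77 to 0.81 for the 3 pairs, and IL10RB went with IL4R (0.79). IL10 had its highest r among members with JAK2 (0.66), and JAK3 had none above 0.28. Outside the members, among 11704 genes with a symbol, SOCS1 was most like NOD2 (0.91), CDKN1A and NFKBIA, CISH most like GADD45B (0.95), THOC6 and ZC3H12A, and IL4R most like PPRC1 (0.97), DBNDD2 and SLC41A1. For IL10 the leading gene was SNX18 (0.85), for IL10RA CSF2RB (0.82), for JAK2 CHD1 (0.95) and for JAK3 TAF5 (0.75). STAT5A was among the 3 genes most like IL10RB (0.90). These values describe 27 libraries that share pigs, depth and the effect of time, and the 3 times of 1 pig are not independent.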

How the data were processed

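The authors trimmed reads with Cutadapt 1.15, aligned them to Sscrofa11.1 (Ensembl annotation) with TopHat2 2.0.14 and counted with featureCounts (Subread 1.6.0), per the labels' processing notes and the study's methods. The authors deposited unnormalized counts per Ensembl gene for 27 libraries of a directional mRNA kit. The strand setting and the treatment of reads with several places are not given in the sources used here, nor is which of 2 RNA extraction methods each biopsy had.

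Groups, pigs and times came from the sample labels. Genes passing filterByExpr were scaled by TMM and tested with edgeR 4.0.16 (R 4.3.3, limma 3.58.1; robust quasi-likelihood, two-sided, Benjamini-Hochberg over all genes tested), each group with its 3 times and the pig as replicate block, since each pig gave all biopsies. Levels at 1 time had no block. The SE given with an edgeR log2 fold change was derived from its test, as the absolute change divided by the square root of the F statistic. Interactions used all 27 libraries. Residuals of the same pig had a mean r of 0.526 (0.341 to 0.74) for GS and 0.109 (-0.287 to 0.49) for PD. Per-pig ratios used 0.5 added to each count. DESeq2 1.42.0 and the other settings are given in the closing section. No pair of libraries was a duplicate. The code was tested on simulated data.

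The genes named are the 9 members, whatever their values, pathway and IL-10 target genes past the threshold in a comparison, cell markers whether called or not, and genes from the 3 most like each member (1 is not reported here). Members and lists were chosen with earlier results of these data known. No columns of fold changes or p-values were used. The SOCS2 transcript is not analysed here.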

Additional observations from a re-analysis of the deposited data

Results flagged for a closer look

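In the 48 combinations of gene, group and time, 3 had a highest or lowest library far from the others (gap to the nearest library divided by the whole range, on log2 CPM). Chance gives about 1 in 20 such combinations. IL10RB of GS pig 17 at 0h was at 20.6 CPM, below 29.9 to 34.3 CPM in the other 4 pigs (gap over range 0.735). JAK3 of GS pig 9 at 0h was at 57.7 CPM, below 83.0 to 96.3 CPM in the others (0.711). JAK3 of PD pig 4 at 6h was at 91.8 CPM, above 48.7 to 53.2 CPM in the other 3 pigs (0.861). No cause was tested for any of them.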

How the results depend on the processing

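Over the named gene values, 560 of 641 alternatives kept direction and side of the threshold, 36 lost and 32 gained a call, and 13 turned direction. The calls of SOCS1, CISH and IL4R in GS held with no replicate block, DESeq2, DESeq2 size factors, no filter, all libraries in one fit and only the 2 times compared. With 1 pig left out the number of members called ran from 3 to 4 in GS at 6h, 2 to 3 in GS at 12h, 0 to 0 in PD at 6h and 0 to 4 in PD at 12h. For levels it ran from 0 to 3 at 0h, 0 to 2 at 6h and 0 to 1 at 12h, and for exact tests of the 12h ratio from 0 to 1 (without GS pig 17). Members called in PD at 6h were 1 with no replicate block, 1 with no filter, 1 with only the 2 times compared, 2 with DESeq2 and 2 with all 27 libraries in one fit. In PD at 12h they were 3 with no replicate block, 4 with DESeq2, 4 with all libraries in one fit and 0 with only the 2 times compared. Level calls at 0h were 1 with no filter and 0 with all libraries in one fit, which gave 1 at 12h. Settings added after seeing the data gave, without the pair of PD libraries that stand apart, 2 in PD at 6h, 5 at 12h, 3 in levels at 0h (IL10 and IL4R gained, SOCS1 lost) and 1 in levels at 12h, and, with GS pigs 9 and 17 alone, 1 at 6h (IL10RB) and 1 at 12h (IL4R). The causes were not tested, and fewer pigs leave fewer degrees of freedom.

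Direction turned only for values that were not called in the main fits. Among them, IL10 in GS at 6h was called with pigs 44, 55 and 77 alone. With 1 pig left out IL10RA ran from -0.14 to 0.25 (GS 6h) and -0.065 to 0.28 (GS 12h), and JAK3 from -0.12 to 0.0087 (GS 6h), -0.045 to 0.24 (GS 12h) and -0.57 to 0.061 (PD 12h). GS pigs 9 and 17 alone gave -0.17 for IL10, -0.44 for IL10RA and 0.27 for JAK3 at 6h, and -0.42 for IL10RA and -0.061 for JAK2 at 12h. Pigs 44, 55 and 77 alone gave -0.13 for JAK3 at 12h, and PD without the pair of libraries gave 0.12. Depth, the set of lungs and group share one split, so their limits on the PD and GS differences cannot be told apart.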
